A study of Mus musculus with 24 samples.

Results

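Stat2, Irf9 and Stat3 encode transcription factors that carry cytokine signals from the cell surface to the nucleus. They were taken as every probe set of the deposited table whose platform gene symbol is one of the names, which gave 3 of the 18193 genes with a single symbol and 7 probe sets. Stat2 has 2 of these probe sets, Irf9 has 1 and Stat3 has 4. Of the 7, 6 passed the filter on low values (above log2 4 on at least 3 arrays), and the Stat3 probe set 1424272_at did not.

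The arrays measured total cellular RNA of NIH-3T3 cells, an established line of mouse embryonic fibroblasts. Cells received fresh medium with 100 U/ml IFN-alpha (a type I interferon), with 100 U/ml IFN-gamma (the type II interferon) or with neither (mock). All 3 treatments ran for 1 h, with 4 arrays each, and for 3 h, with 3 arrays each. The cells of these 6 groups also carried 4-thiouridine (4sU), a uridine analogue that marks newly made RNA, at 200 µM over the whole 60 min of the 1 h experiment, or at 500 µM between min 150 and min 180 of the 3 h experiment. Mock cells that got no 4sU were measured at 1 h on 3 further arrays.

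As background, type I interferon receptors activate the kinases JAK1 and TYK2, which phosphorylate STAT2. STAT2 and IRF9 are subunits of ISGF3, which binds the interferon-stimulated response element (ISRE) of antiviral genes. The IFN-gamma receptor acts through JAK1 and JAK2, and the DNA element known for its response is the gamma-activated site (GAS). STAT3 is best known as the factor downstream of the IL-6 family of cytokines and their shared receptor chain gp130, and it too binds GAS-like sequences.

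The annotated promoter windows of the members are shown as a description, and whether their sequence bears on the responses was not tested. Each window runs from 250 bases before to 50 bases after the start of the transcript in RefSeq on the mouse build GRCm38.p6, all 3 genes were found there by symbol, and the windows are written 5′ to 3′ on the strand of the gene. Capitals mark matches to the ISRE core (GAAA, any 2 bases, GAAA) or to a GAS in its longer form (TTC, any 4 bases, GAA), searched on both strands.
Stat2, chr10:128270248-128270547, plus strand: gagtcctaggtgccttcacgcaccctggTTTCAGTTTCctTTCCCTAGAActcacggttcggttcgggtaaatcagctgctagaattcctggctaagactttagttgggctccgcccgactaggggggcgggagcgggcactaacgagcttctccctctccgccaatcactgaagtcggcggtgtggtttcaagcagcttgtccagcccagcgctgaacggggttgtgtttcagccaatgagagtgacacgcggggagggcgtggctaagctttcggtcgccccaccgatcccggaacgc
Irf9, first annotated start, chr14:55603735-55604034, plus strand: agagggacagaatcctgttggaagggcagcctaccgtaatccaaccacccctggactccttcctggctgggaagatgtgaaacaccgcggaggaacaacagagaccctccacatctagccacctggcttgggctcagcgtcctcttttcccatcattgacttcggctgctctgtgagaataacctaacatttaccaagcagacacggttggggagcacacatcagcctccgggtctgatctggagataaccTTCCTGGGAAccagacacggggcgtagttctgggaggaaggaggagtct
Stat3, chr11:100939491-100939790, minus strand: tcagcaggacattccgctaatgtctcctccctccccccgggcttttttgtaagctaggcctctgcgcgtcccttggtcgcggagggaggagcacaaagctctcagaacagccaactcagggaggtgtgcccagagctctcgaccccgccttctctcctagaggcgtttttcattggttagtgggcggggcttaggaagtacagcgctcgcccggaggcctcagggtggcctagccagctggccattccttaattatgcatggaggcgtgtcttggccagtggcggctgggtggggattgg

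The Stat2 window held an ISRE core match on its minus strand at positions -222 to -213 from the start and, after a gap of 2 bases, a longer GAS match at -210 to -201. These matches do not overlap each other. The Irf9 window held a longer GAS match at bases 2 to 11 of the transcript and no ISRE core match. A further Irf9 window, around a start site at chr14:55604329-55604628, held neither, and neither did the Stat3 window. Of all 32851 promoter windows in the table, 3.44% held the ISRE core and 6.95% the longer GAS. The shorter GAS form TTCNNNGAA (8.30% of all windows) and the cyclic AMP element TGACGTCA (1.79%) were found in none of the 4 windows. The GC box GGGCGG, which 35.7% of all windows held, was found on either strand of the Stat2 window, in the further Irf9 window and in the Stat3 window. A match is a run of letters and not a measured binding site, and these arrays did not measure binding. The genes themselves lie at chr10:128270498-128292853 (Stat2), chr14:55603985-55610030 (Irf9) and chr11:100886806-100939594 (Stat3).

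**Figure D1:**
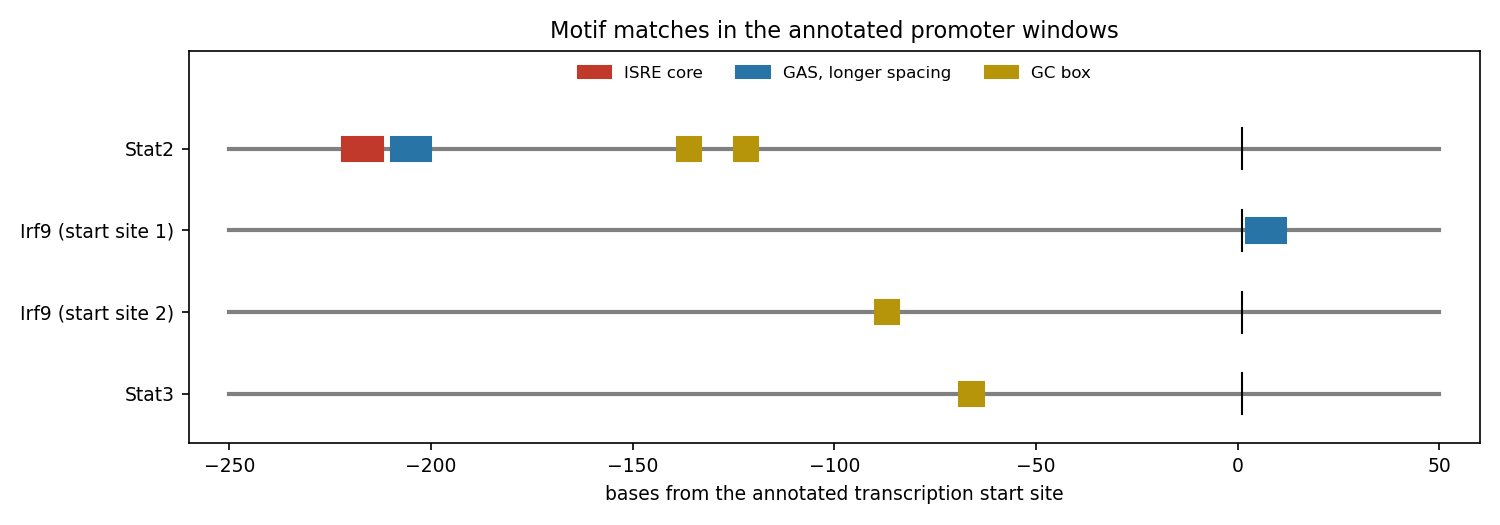
Position of motif matches on either strand in the 4 annotated promoter windows, in bases from the annotated start site (black tick). Red boxes are ISRE core matches, blue boxes longer GAS matches and yellow boxes GC boxes, and the red box stands only in the Stat2 window.

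The deposited values are log2 signals that the authors made with GCRMA, and array medians lay between 2.95 and 3.11. The number of arrays limits the precision, and the labels do not say whether replicates came from separate cultures, so p-values measure only array-to-array spread, which may be technical. Fibroblast markers fitted the label, with 9 of 10 above log2 4 on average (median 12.6, and Fap the exception at 2.35), against 1 of 8 leukocyte markers (Cd14 at 5.35), 0 of 5 epithelial and 0 of 4 endothelial ones. In bulk RNA, fewer responding cells and less RNA per cell cannot be told apart. On 5 of the 15 arrays at 1 h the 5′ signal of beta-actin was low. These were replicate 2 of each 4sU group and replicates 2 and 3 without 4sU, where the 3′ signal exceeded the 5′ signal by 2.22 to 3.43 on the log2 scale, against 0.785 to 1.37 on the other 1 h arrays and 0.796 to 0.965 at 3 h. The comparisons below come from a single limma fit over 19305 probe sets, and a probe set was called where its Benjamini-Hochberg adjusted p was under 0.05. Arrays of the same replicate number were taken as pairs across the interferon and mock groups, which the labels do not state. The adjusted p with replicate number as a block is given where it changed a call. The IFN-alpha and IFN-gamma comparisons at each time share their mock arrays.

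**Figure D2:**
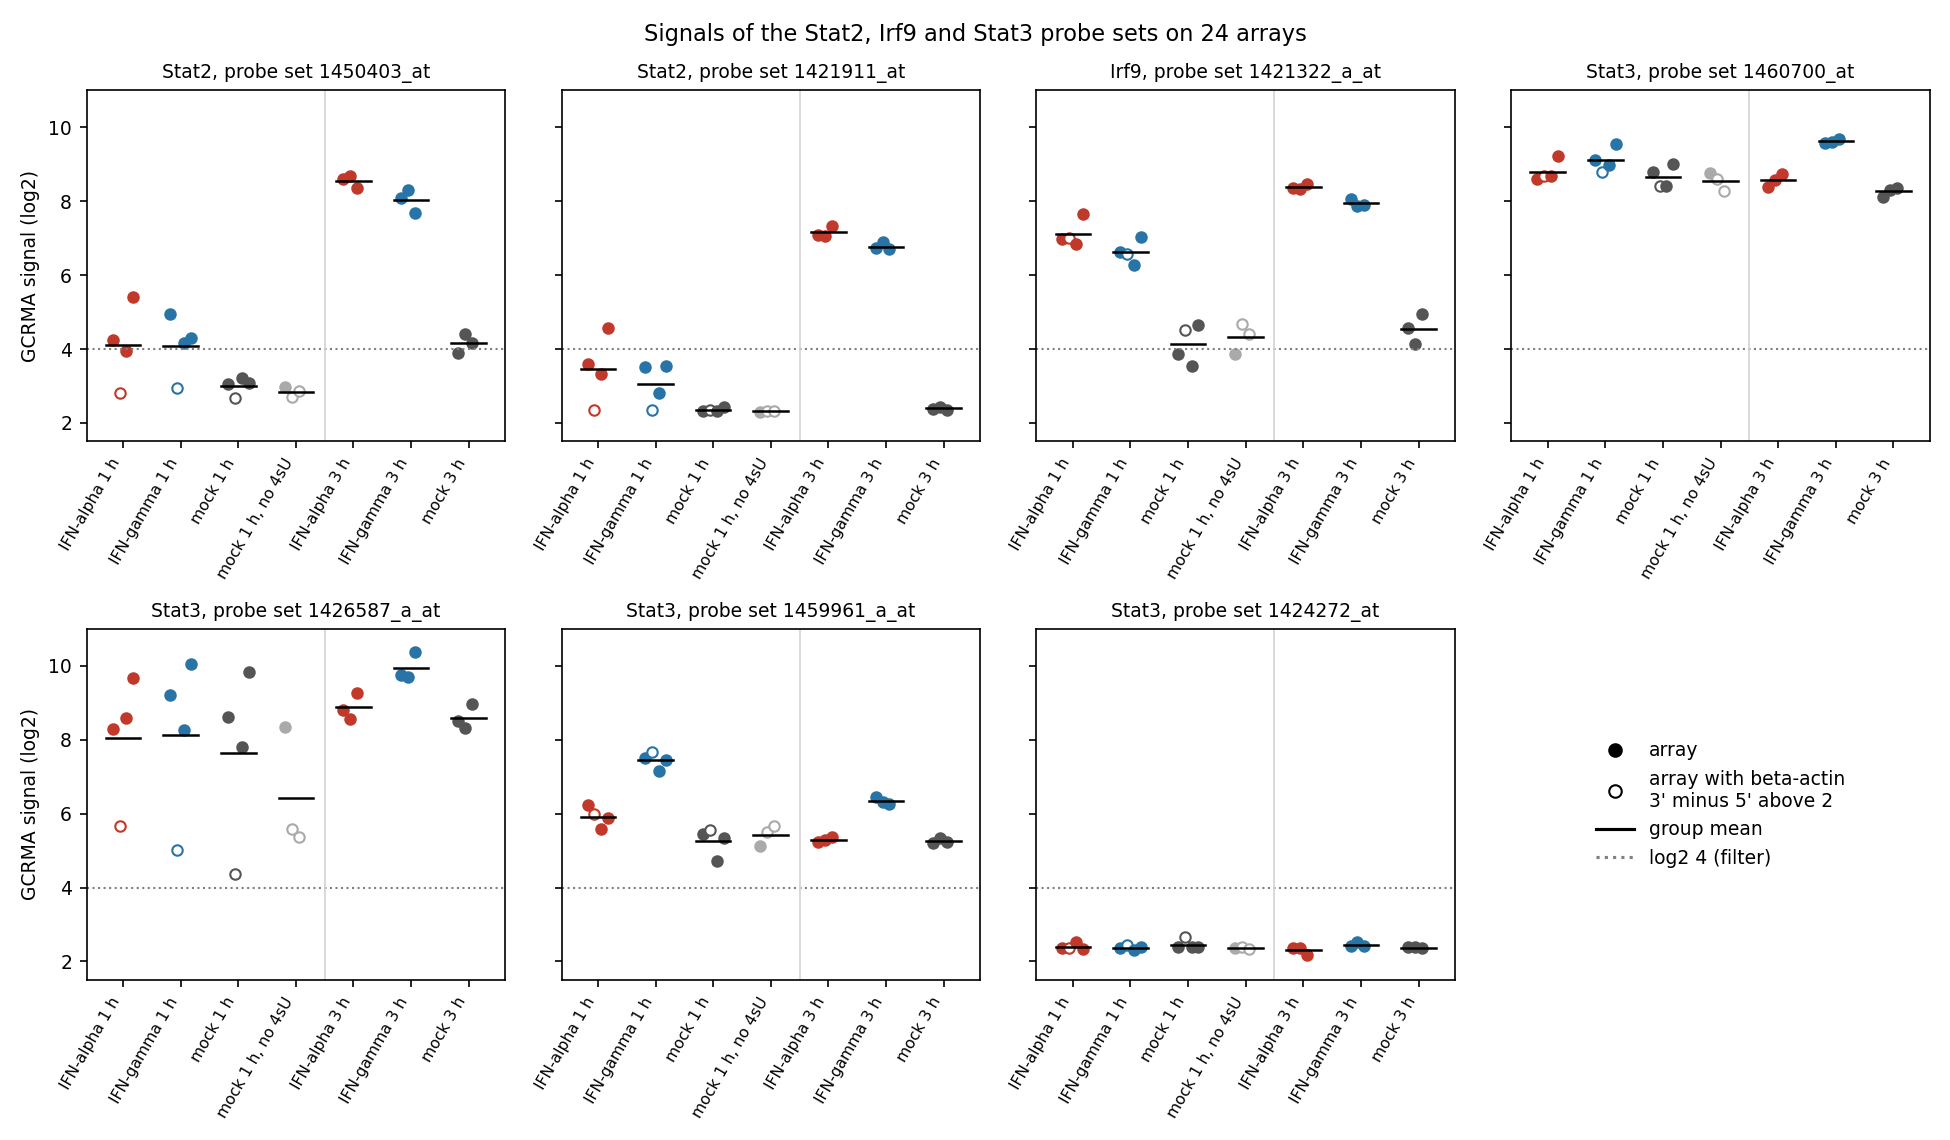
GCRMA signal (log2) of the 7 probe sets on each of the 24 arrays, by treatment and time, with the group mean as a black line and the log2 4 level of the filter dotted. Open circles are the 5 arrays at 1 h with low 5′ actin signal. Irf9 was above all mock arrays in each interferon group, Stat2 in each interferon group at 3 h, and Stat3 probe set 1459961_a_at in both IFN-gamma groups.

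Irf9, the DNA-binding subunit of ISGF3, was raised by both interferons at 1 h. Its probe set 1421322_a_at read 6.97, 7.01, 6.84 and 7.67 at 1 h of IFN-alpha, against 3.87, 4.53, 3.55 and 4.64 on the mock arrays. IFN-gamma at 1 h gave 6.64, 6.58, 6.29 and 7.04 on the same probe set. All 8 interferon arrays lay above all 4 mock arrays, and replicate 2, of low 5′ actin signal, stood within the range of its group in all 3 groups. IFN-alpha raised Irf9 by 2.98 ± 0.25 on the log2 scale (SE, n = 4 against 4), or 7.86-fold, with a limma adjusted p of 3.62e-07. It was the 1 member probe set of 6 called in that comparison, in which 0.259% of all probe sets were called higher. IFN-gamma raised it by 2.49 ± 0.25, or 5.62-fold, with a limma adjusted p of 3.1e-06. In that comparison 2 of the 6 member probe sets were called, and 0.435% of all probe sets were called higher.

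At 3 h Irf9 stood higher still in both interferon groups. It read 8.36, 8.33 and 8.47 in IFN-alpha cells and 8.07, 7.88 and 7.91 in IFN-gamma cells, against 4.56, 4.15 and 4.94 in mock cells. The 3 groups did not overlap. The difference from mock, of 3 against 3 arrays with the pooled SE, was 3.84 ± 0.29 for IFN-alpha (14.3-fold, limma adjusted p 4.79e-09) and 3.40 ± 0.29 for IFN-gamma (10.6-fold, limma adjusted p 5.37e-08). At 3 h, 3 of the 6 member probe sets were called higher with IFN-alpha, where 1.53% of all probe sets were, and 5 of 6 with IFN-gamma, where 1.88% were. Both Stat2 probe sets needed interferon arrays to pass the filter, so these counts partly follow from it.

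In descending order the Irf9 group means were 8.39 (IFN-alpha at 3 h), 7.95 (IFN-gamma at 3 h), 7.12 (IFN-alpha at 1 h), 6.64 (IFN-gamma at 1 h), 4.55 (mock at 3 h), 4.32 (mock at 1 h without 4sU) and 4.15 (mock at 1 h). Neighbours overlapped between the interferons at 1 h and among the mock groups, and nowhere else in this order. IFN-alpha exceeded IFN-gamma by 0.48 ± 0.25 at 1 h and by 0.43 ± 0.29 at 3 h, and neither difference was called (limma adjusted p 1.0 for each). The response at 3 h exceeded that at 1 h by 0.86 ± 0.38 for IFN-alpha and by 0.91 ± 0.38 for IFN-gamma, which was not called in either case (limma adjusted p 1.0). With replicate number as a block the increase was called for IFN-gamma (adjusted p 0.0294) and missed the threshold for IFN-alpha (adjusted p 0.0542).

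Stat2, the subunit of ISGF3 that activates transcription, was at or near background in resting cells and rose strongly by 3 h with both interferons. On probe set 1450403_at, which has the higher mean of its pair, the 3 h arrays read 8.59, 8.70 and 8.37 with IFN-alpha and 8.09, 8.32 and 7.69 with IFN-gamma, against 3.88, 4.42 and 4.16 in mock cells. All 6 interferon arrays lay above all mock arrays, and those of IFN-alpha above those of IFN-gamma. IFN-alpha raised it by 4.40 ± 0.46 (SE, n = 3 against 3), or 21.1-fold, with a limma adjusted p of 1.05e-06. IFN-gamma raised it by 3.88 ± 0.46, or 14.7-fold, with a limma adjusted p of 1.01e-05.

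The other Stat2 probe set, 1421911_at, showed the same at 3 h. It read 7.10, 7.07 and 7.32 with IFN-alpha and 6.73, 6.91 and 6.70 with IFN-gamma, against 2.39, 2.44 and 2.36 in mock cells. It exceeded log2 4 on 7 arrays, namely the 3 of each interferon at 3 h and 1 of IFN-alpha at 1 h. It thus passed the filter only through interferon arrays, and its calls at 3 h partly follow from that. On 1450403_at 2 mock arrays of 3 h exceeded log2 4, fewer than the 3 arrays the filter asks for. The mock arrays of 1421911_at were all below log2 4, so its folds are lower bounds, set with mock arrays raised to 4. They were at least 8.95-fold for IFN-alpha (limma adjusted p 4.87e-09) and at least 6.85-fold for IFN-gamma (limma adjusted p 3.17e-08).

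At 1 h Stat2 was higher on most interferon arrays, and neither probe set was called. Probe set 1450403_at read 4.24, 2.81, 3.94 and 5.41 with IFN-alpha and 4.96, 2.94, 4.17 and 4.30 with IFN-gamma, against 3.04, 2.66, 3.21 and 3.08 in mock cells. The low values of both interferon groups were those of replicate 2, and the other 6 interferon arrays lay above all mock arrays. The difference was 1.10 ± 0.40 for IFN-alpha (limma adjusted p 1.0, and 0.133 with the block) and 1.09 ± 0.40 for IFN-gamma (limma adjusted p 0.895, and 0.0613 with the block). Each interferon array exceeded the mock array of its own number, by 0.15 to 2.33 for IFN-alpha and by 0.28 to 1.92 for IFN-gamma. Most of these signals are near or below log2 4, and with values below 4 set to 4 the difference was 0.41 for IFN-alpha and 0.36 for IFN-gamma. Without replicate 4 of IFN-alpha its difference was 0.66.

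On 1421911_at the 1 h arrays read 3.60, 2.34, 3.32 and 4.56 with IFN-alpha and 3.51, 2.36, 2.80 and 3.55 with IFN-gamma, against 2.32, 2.34, 2.33 and 2.42 in mock cells. Again replicate 2 of each interferon group stood at the mock level, and the other 6 interferon arrays lay above all mock arrays. The difference was 1.10 ± 0.31 for IFN-alpha, with a limma adjusted p of 0.445, and it was called with the block (adjusted p 0.0442). For IFN-gamma it was 0.70 ± 0.31, with a limma adjusted p of 1.0 and of 0.163 with the block. Only 1 of the 8 interferon arrays exceeded log2 4 here, so no fold is given, and with values below 4 set to 4 the IFN-alpha difference was 0.14.

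The arrays of low 5′ actin signal were the lowest of 1 h on Stat2 probe set 1450403_at. All 5 read 2.66 to 2.94 on 1450403_at, against 2.97 to 5.41 on the other 10 arrays at 1 h. On 1421911_at they read 2.32 to 2.36, within the 2.29 to 4.56 of the other 10. Without these 5 arrays, the 1 h difference on 1450403_at was 1.42 ± 0.31 for IFN-alpha (limma adjusted p 0.0951) and 1.37 ± 0.31 for IFN-gamma (limma adjusted p 0.0724). On 1421911_at it was 1.47 ± 0.25 for IFN-alpha, which was called (limma adjusted p 0.0123), and 0.93 ± 0.25 for IFN-gamma, which was not (limma adjusted p 0.209). The part of RNA quality in these values was not tested further.

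The Stat2 response was larger at 3 h than at 1 h by a test of the difference between the times. It grew by 3.30 ± 0.61 for IFN-alpha on 1450403_at (limma adjusted p 0.00396) and by 3.66 ± 0.47 on 1421911_at (limma adjusted p 4.44e-05). These were the 2 of 6 member probe sets called for IFN-alpha, where 0.953% of all probe sets were called in either direction. For IFN-gamma the same 2 were called, by 2.78 ± 0.61 (limma adjusted p 0.0279) and 3.67 ± 0.47 (limma adjusted p 6.38e-05), against 0.829% of all probe sets. The IFN-gamma call on 1450403_at was lost when any of 8 single arrays was left out of the 14, with adjusted p up to 0.107, whereas 1421911_at was called under each omission. Part of the 1 h level is hidden below background on both probe sets. Both needed interferon arrays to pass the filter, so the counts of member calls here partly follow from it.

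Between the interferons no Stat2 difference was called at either time in the fit over all arrays. On 1450403_at IFN-alpha minus IFN-gamma was 0.005 ± 0.40 at 1 h and 0.52 ± 0.46 at 3 h (limma adjusted p 1.0 for each), although the 3 h arrays of IFN-alpha all lay above those of IFN-gamma. On 1421911_at the 3 h difference was 0.39 (limma adjusted p 1.0), and it was called in a fit of the 3 h arrays alone (adjusted p 0.0476). In order, the group means of 1450403_at were 8.55 (IFN-alpha at 3 h), 8.03 (IFN-gamma at 3 h), 4.16 (mock at 3 h), 4.10 (IFN-alpha at 1 h), 4.09 (IFN-gamma at 1 h), 3.00 (mock at 1 h) and 2.85 (mock at 1 h without 4sU). All neighbours below the IFN-gamma group at 3 h overlapped in their arrays. Mock cells at 3 h lay above all mock arrays of 1 h on this probe set, by 1.16 ± 0.43 in the mean, and not on 1421911_at (0.04 ± 0.33). Time, 4sU dose and labelling window differed together between the mock groups and cannot be told apart.

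Stat3 was above background in resting cells on 3 of its 4 probe sets and was raised by IFN-gamma, while no IFN-alpha difference was called in the fit without a block. At 3 h, probe set 1460700_at, which has the highest mean of the 4, read 9.59, 9.60 and 9.69 with IFN-gamma, against 8.12, 8.32 and 8.36 in mock cells. IFN-alpha gave 8.39, 8.57 and 8.74 on it. The IFN-gamma arrays lay above all others of 3 h, and the IFN-alpha arrays lay just above those of mock. IFN-gamma raised it by 1.36 ± 0.21 (SE, n = 3 against 3), or 2.56-fold, with a limma adjusted p of 0.000261. The IFN-alpha difference was 0.30 ± 0.21 (limma adjusted p 1.0, and 0.194 with the block).

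Probe set 1459961_a_at gave a similar IFN-gamma difference at 3 h, with 6.44, 6.31 and 6.27, against 5.20, 5.34 and 5.23 in mock cells. IFN-alpha arrays read 5.23, 5.28 and 5.38, within or just above the mock range. IFN-gamma raised it by 1.08 ± 0.20, or 2.12-fold (limma adjusted p 0.0025), and IFN-alpha differed from mock by 0.04 ± 0.20 (limma adjusted p 1.0).

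At 1 h the Stat3 probe sets disagreed in size. On 1459961_a_at IFN-gamma cells read 7.51, 7.66, 7.17 and 7.46, against 5.45, 5.56, 4.73 and 5.34 in mock cells. IFN-alpha cells read 6.24, 5.99, 5.58 and 5.88 on it. All 3 groups stood apart, with IFN-gamma highest. IFN-gamma raised this probe set by 2.18 ± 0.17 (SE, n = 4 against 4), or 4.52-fold, with a limma adjusted p of 1.32e-07, and the difference was as large without the arrays of low 5′ actin signal (2.20 ± 0.18). For IFN-alpha the difference was 0.65 ± 0.17, with a limma adjusted p of 0.321, and it was called with the block (adjusted p 0.00161).

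On 1460700_at the 1 h difference was small. IFN-gamma cells read 9.11, 8.80, 8.99 and 9.54 and IFN-alpha cells 8.59, 8.69, 8.69 and 9.24, against 8.78, 8.42, 8.42 and 9.02 in mock cells. The groups overlapped, and each IFN-gamma array exceeded the mock array of its own number by 0.32 to 0.56. The mean difference was 0.45 ± 0.18 for IFN-gamma (limma adjusted p 1.0, called with the block, adjusted p 0.0105) and 0.14 ± 0.18 for IFN-alpha (limma adjusted p 1.0, and 0.57 with the block).

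The 2 probe sets also moved in opposite directions between the times. The IFN-gamma response of 1459961_a_at was smaller at 3 h than at 1 h, with a change of -1.10 ± 0.27 (limma adjusted p 0.0615, called with the block, adjusted p 0.000221). That of 1460700_at was larger at 3 h, with a change of 0.91 ± 0.27 (limma adjusted p 0.251, called with the block, adjusted p 0.000659). The IFN-alpha response of 1459961_a_at changed by -0.61 ± 0.27 (limma adjusted p 1.0, called with the block, adjusted p 0.0333). Both probe sets carry the Stat3 symbol in the platform annotation, and the positions of their probes in the transcript were not used here.

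A direct test placed Stat3 lower with IFN-alpha than with IFN-gamma. At 3 h IFN-alpha minus IFN-gamma was -1.06 ± 0.21 on 1460700_at (limma adjusted p 0.005) and -1.04 ± 0.20 on 1459961_a_at (limma adjusted p 0.00436). These were the 2 of 6 member probe sets called between the interferons at 3 h, where 1.68% of all probe sets were called in either direction. At 1 h it was -1.53 ± 0.17 on 1459961_a_at (limma adjusted p 4.26e-05), the 1 of 6 called, against 0.363% of all probe sets. That call was lost in a fit of the IFN-alpha and IFN-gamma arrays of 1 h alone (adjusted p 0.0552). On 1460700_at it was -0.31 ± 0.18 at 1 h (limma adjusted p 1.0, and 0.0886 with the block).

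The remaining Stat3 probe sets were limited by the 5′ signal or by background. Probe set 1426587_a_at read 4.37 to 5.67 on the 5 arrays of low 5′ actin signal and 7.80 to 10.05 on the other 10 arrays of 1 h, with no overlap. Its SE was 1.07 at 1 h and 1.24 at 3 h in the fit over all arrays, and no difference on it was called there. At 3 h, where no array had low 5′ actin signal, it read 9.77, 9.70 and 10.37 with IFN-gamma and 8.80, 8.57 and 9.27 with IFN-alpha, against 8.51, 8.33 and 8.96 in mock cells. The IFN-gamma difference at 3 h was 1.34, close in size to that of 1460700_at, with a limma adjusted p of 1.0 over all arrays, of 0.0105 in a fit of the 3 h arrays alone and of 0.00263 with the block. IFN-alpha minus IFN-gamma was -1.06 on it at 3 h, with a limma adjusted p of 1.0 over all arrays and of 0.0168 with the block. Probe set 1424272_at stayed between 2.18 and 2.67 on all 24 arrays, below the filter, and gave no level.

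**Figure D3:**
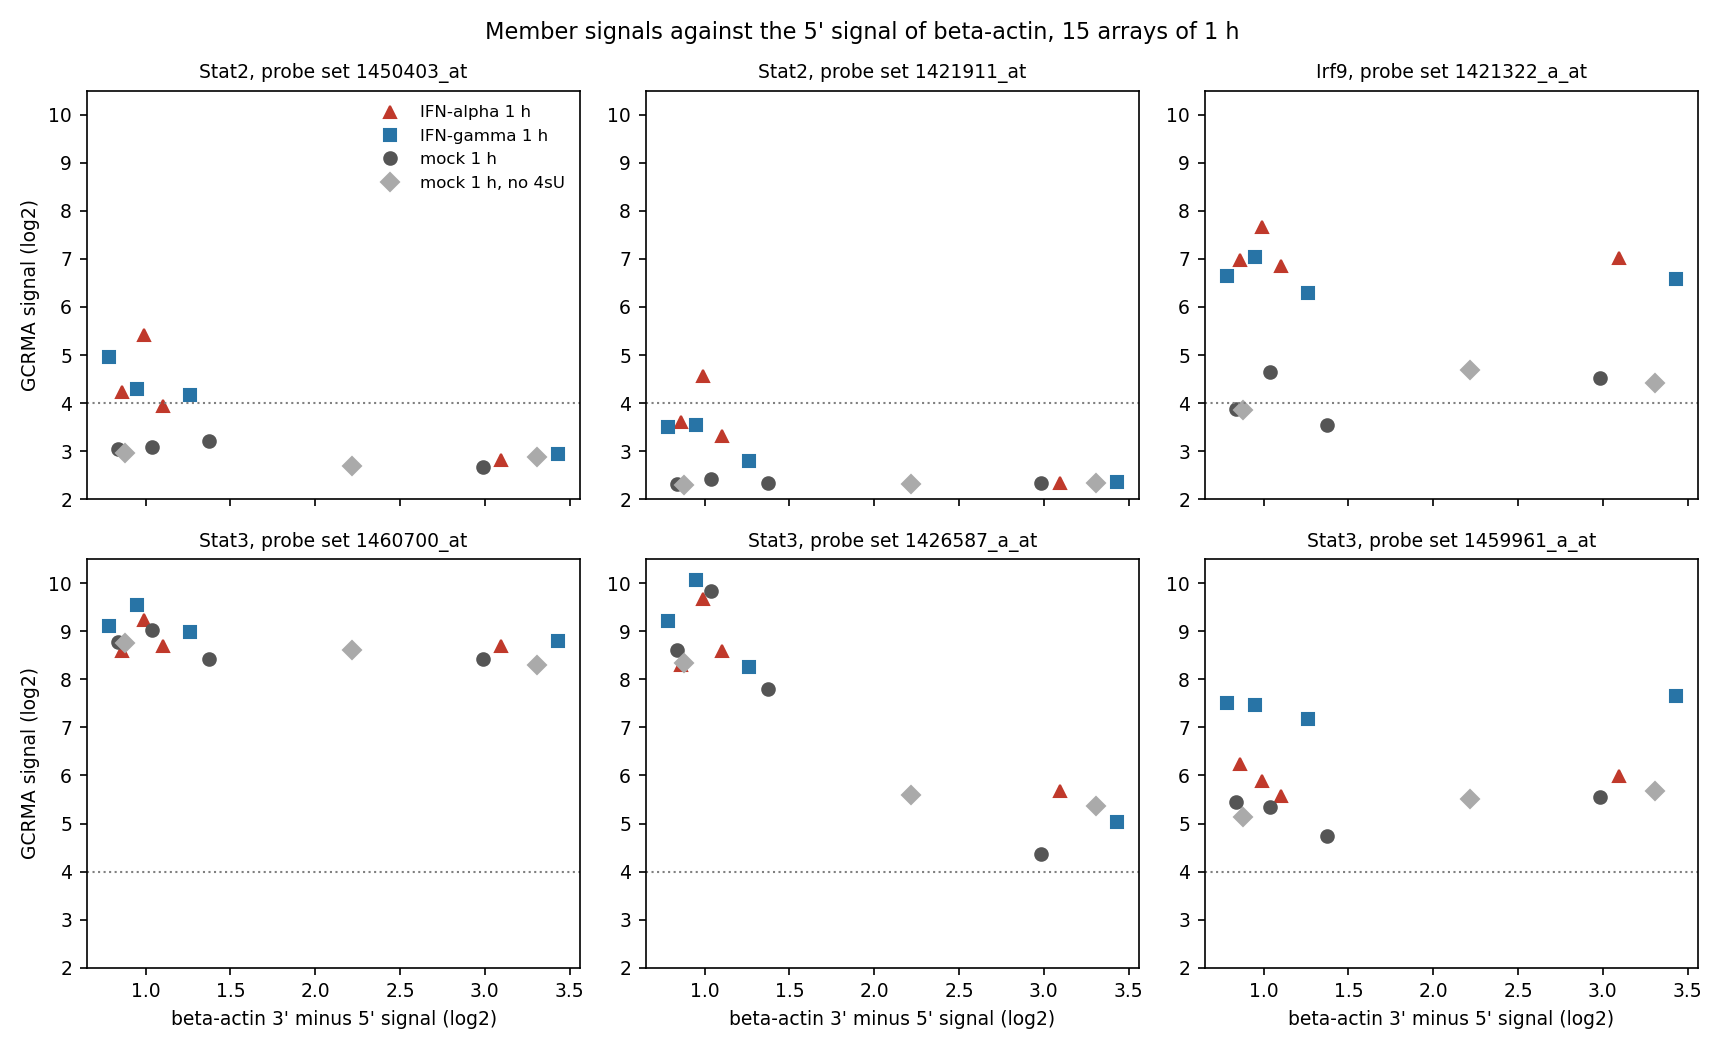
Signal (log2) of the 6 probe sets that passed the filter against the 3′ minus 5′ signal of beta-actin (log2) on the 15 arrays of 1 h, by group. The 5 arrays on the right, of 2.22 to 3.43, are the lowest on Stat3 probe set 1426587_a_at and on Stat2 probe set 1450403_at. On Irf9 the interferon arrays among them still stand above all mock arrays.

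**Figure D4:**
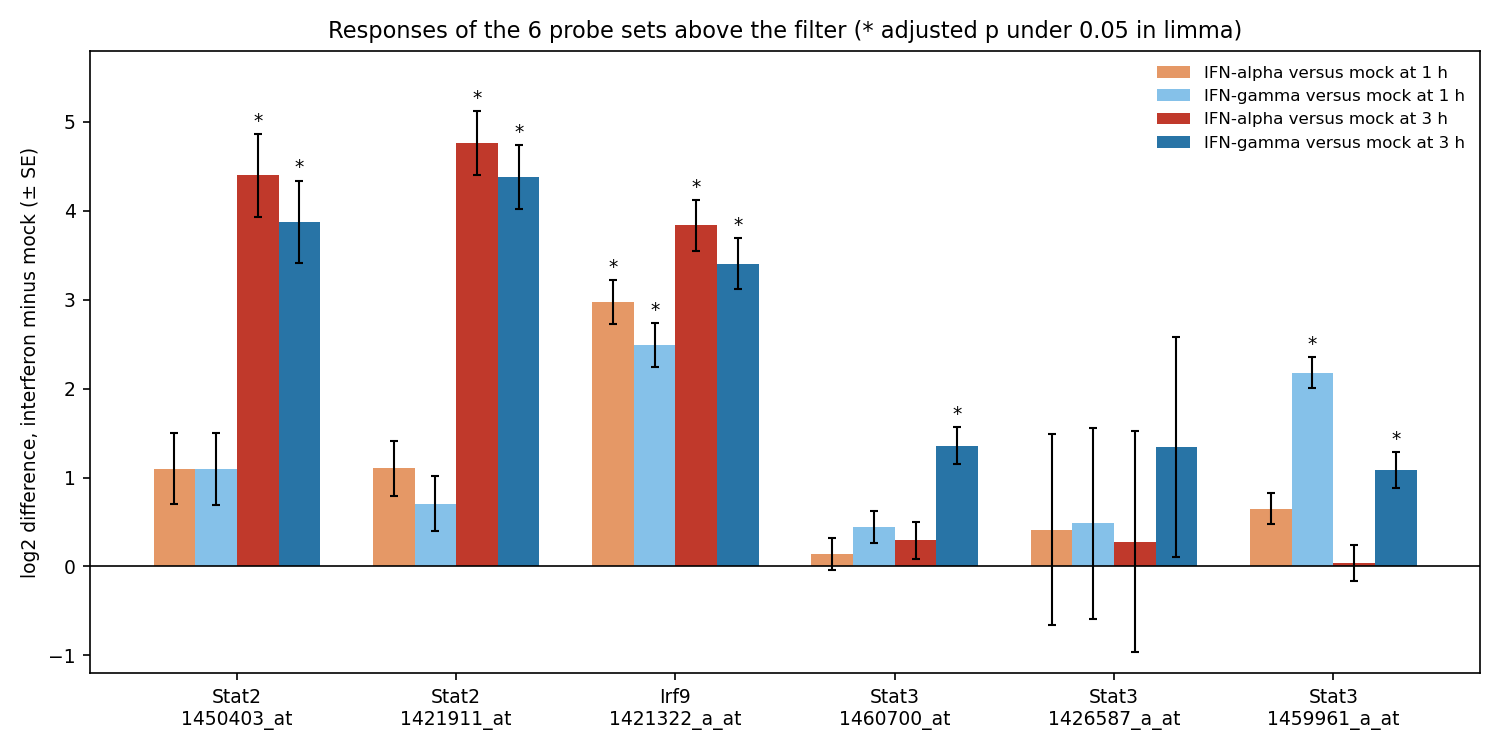
Log2 difference of each interferon from mock at 1 h and 3 h for the 6 probe sets that passed the filter, with SE from the limma fit and stars for an adjusted p under 0.05. Irf9 has stars in all 4 comparisons, Stat2 at 3 h for both interferons, and Stat3 only for IFN-gamma.

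No member difference was called between mock cells with and without 4sU. The 4sU minus unlabelled difference in mock cells at 1 h was 0.15 ± 0.43 for Stat2 (1450403_at), -0.17 ± 0.27 for Irf9 and 0.11 ± 0.19 for Stat3 (1460700_at), with limma adjusted p of 0.954, 0.914 and 0.927. With limma, 0 of the 6 member probe sets were called and 0 had an unadjusted p under 0.05, against 0.0311% of all probe sets called. The widest difference was that of Stat3 probe set 1426587_a_at, 1.22 ± 1.16 (limma adjusted p 0.864). With array weights it was 2.75 and called (limma adjusted p 0.00797), in a fit that called 3888 of all 19305 probe sets for 4sU, against 6 without weights. Without the arrays of low 5′ actin signal the difference on 1426587_a_at was 0.41 (limma adjusted p 0.972). Of the 3 unlabelled arrays 2 had low 5′ actin signal, against 1 of the 4 labelled ones.

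Members were also set against each other as the difference of their log2 values on each array, over 12 comparisons. At 1 h of IFN-alpha the Irf9 response exceeded that of Stat2 by 1.88 and that of Stat3 by 2.84 (exact permutation p 0.0286 for each, two-sided, and 0.114 after Benjamini-Hochberg adjustment). At 1 h of IFN-gamma it exceeded them by 1.40 (exact permutation p 0.0571, adjusted 0.15) and by 2.04 (exact permutation p 0.0286, adjusted 0.114). At 3 h Stat2 minus Stat3 was 4.10 for IFN-alpha and 2.52 for IFN-gamma, and Irf9 minus Stat2 was -0.56 and -0.47. With 4 against 4 arrays no p can go below 0.0286 and with 3 against 3 none below 0.1, so an adjusted p over these 12 tests cannot go below 0.0571, and the test could call none of them. Probe sets can differ in how strongly they respond to the same change, so these are differences between signals.

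Across the 24 arrays, which share treatments and the 5′ signal split, the genes most like each member were ranked by Pearson correlation as a description. Their calls come from the same arrays, so calls shared with the member partly follow from this choice and are no separate result. For Stat2 these were Trim21 (r = 0.954), Psmb9 (0.946), Gbp7 (0.945), Parp14 (0.945) and Uba7 (0.942), which encode an antibody receptor and ubiquitin ligase, an immunoproteasome subunit, a guanylate-binding protein, an ADP-ribosyltransferase and the enzyme that activates ISG15. All 5 were called higher at 3 h with both interferons, and of them Trim21 and Parp14 were called at 1 h, with IFN-alpha. For Irf9 they were Cxcl10 (0.983), a chemokine, the p47 GTPases Irgm2 (0.962), Irgm1 (0.959) and Igtp (0.943), and Trim25 (0.928), a ubiquitin ligase of RNA sensing. All 5 were called higher with both interferons at both times. For Stat3 they were Rnf19b (0.945), Tifa (0.916), Stom (0.915), Fst (0.905), an activin antagonist, and Socs1 (0.891), a suppressor of JAK kinases. All 5 were called higher at 3 h with IFN-gamma, none was called with IFN-alpha at either time by limma, and their IFN-alpha differences ranged between -0.18 and 0.92. Over the 7 group means the leading correlations were 0.973 for Trim21 with Stat2, 0.995 for Cxcl10 with Irf9 and 0.986 for Rnf19b with Stat3.

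Among the members themselves, the 2 Stat2 probe sets correlated at r = 0.979 over the 24 arrays, and Stat2 with Irf9 at 0.796 (1450403_at) over all arrays and 0.984 over the 9 arrays of 3 h. Stat3 (1460700_at) correlated with Stat2 at 0.401 and with Irf9 at 0.522 over the 24 arrays. The points share treatments and replicates.

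Upstream of the members, none of the 8 measured interferon receptors and kinases was called in a comparison with mock. Of the 9418 genes tested besides the 3 members, 28 (IFN-alpha) and 36 (IFN-gamma) were called higher at 1 h, and 167 and 205 at 3 h. At such shares 0 of 8 says little about these genes. At an unadjusted limma p under 0.05 there were 0 of the 8 for IFN-alpha and 2 for IFN-gamma at 1 h, and 1 for each interferon at 3 h. Of the 9418 genes there were 108 and 245 at 1 h, and 336 and 492 at 3 h. Ifnar1 and Ifnar2, the chains of the type I receptor, differed by between -0.13 and 0.44 over the 4 comparisons. The kinases Jak1 and Tyk2 differed by between -0.08 and 0.03 and by between -0.47 and 0.01. With the block, Ifnar2 was called higher with IFN-gamma at 1 h (adjusted p 0.0419) and 3 h (0.00748), and Jak2 with IFN-alpha at 3 h (0.0223). Of all 19305 probe sets the block called 120 (IFN-alpha) and 255 (IFN-gamma) higher at 1 h, and 532 and 746 at 3 h. None of the 3 measured other STAT genes (Stat5a, Stat5b and Stat6) was called either, with 0 at an unadjusted limma p under 0.05 in each of the 4. At the shares above, 0 of 3 says little as well.

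Of 5 measured other IRF genes, 1 was called with IFN-alpha at 1 h, 1 with IFN-gamma at 1 h, 3 with IFN-alpha at 3 h and 1 with IFN-gamma at 3 h. In the same order, 28, 36, 167 and 205 of the 9418 genes were called higher. Irf1, a transcription factor that activates antiviral genes, rose 10.2-fold with IFN-alpha and 38.8-fold with IFN-gamma at 1 h, and 1.97-fold and 23.3-fold at 3 h. Irf7, which amplifies type I interferon production, rose at least 6.62-fold with IFN-alpha at 3 h (limma adjusted p 1.09e-12), and differed from mock by 0.49 ± 0.19 with IFN-gamma at 3 h (limma adjusted p 0.545). Irf7 averaged above log2 4 only with IFN-alpha at 3 h, so it passed the filter through that group. Irf2, a repressor that competes with Irf1, rose at least 2.36-fold with IFN-alpha at 3 h (limma adjusted p 0.0215), set with mock arrays below log2 4 raised to 4.

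Downstream, 24 target genes of ISGF3 were measured, each by its probe set of highest mean, and they differed between the interferons. With IFN-alpha 11 of 24 were called higher at 1 h (median log2 difference 1.34) and 24 of 24 at 3 h (median 4.78). A gene counted as measured if above log2 4 on 3 arrays, which the IFN-alpha group at 3 h can supply alone. Some genes, such as Oasl1 (mean 5.89 there) and Irf7 (6.73), averaged below 4 in every other group. The counts and medians of IFN-alpha at 3 h, and those against IFN-gamma, therefore partly follow from the filter. With IFN-gamma 0 of 24 were called at 1 h (median 0.04), with 2 at an unadjusted limma p under 0.05, and 17 of 24 at 3 h (median 1.52). With the block the IFN-gamma count at 1 h was 1 of 24 (Trim25), and it was also 1 of 24 without the arrays of low 5′ actin signal. In the direct test 8 of 24 at 1 h and 19 of 24 at 3 h were higher with IFN-alpha than with IFN-gamma, and none was lower. With the block these counts were 14 and 22, against 192 and 423 higher of all 19305 probe sets. The medians over the 9418 genes tested besides the 3 members, these 24 included, were -0.002 and -0.07 for IFN-alpha, and -0.04 and -0.05 for IFN-gamma, at 1 h and 3 h in each case. Of these 9418, 28 and 167 were called higher with IFN-alpha and 36 and 205 with IFN-gamma. In the direct test 14 and 78 of the 9418 were higher with IFN-alpha, and 24 and 97 lower. Ifit1, which binds foreign RNA, rose 47.1-fold at 1 h and 208-fold at 3 h with IFN-alpha, and differed by -0.15 ± 0.86 at 1 h and 3.65 ± 0.99 at 3 h with IFN-gamma (limma adjusted p 1.0 and 0.0683, the second called with the block at an adjusted p of 0.00043). Ifit3 rose 12.8-fold at 1 h and 227-fold at 3 h with IFN-alpha. Usp18, which removes ISG15 and restrains the type I receptor, rose at least 3.93-fold at 1 h and at least 194-fold at 3 h with IFN-alpha, and at least 7.76-fold with IFN-gamma at 3 h. Rtp4 rose 11.2-fold at 1 h with IFN-alpha and 42.8-fold at 3 h with IFN-gamma. At 3 h Oasl2 rose at least 119-fold with IFN-alpha and at least 35.5-fold with IFN-gamma, and with IFN-gamma Parp14 rose at least 22.1-fold and Xaf1 16.2-fold. At 1 h of IFN-gamma, then, Irf9 was 5.62-fold above mock while none of the 24 genes was called by limma without the block.

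Around Stat3, 2 of 20 measured STAT3 target genes were called higher at 1 h with each interferon, Socs3 and Il6, and 1 at 3 h with each, Il6 with IFN-alpha and Socs3 with IFN-gamma. The medians of the list were 0.14 and 0.01 with IFN-alpha and 0.07 and 0.10 with IFN-gamma, at 1 h and 3 h in each case. Of the 9418 genes, 28 and 167 were called higher with IFN-alpha and 36 and 205 with IFN-gamma. The same shares apply to the negative regulators below. With the block 6 of the 20 were called higher at 1 h with each interferon and 3 lower with IFN-gamma, and at 3 h 2 were called higher with IFN-alpha and 6 with IFN-gamma. Of all 19305 probe sets the block called 120 (IFN-alpha) and 255 (IFN-gamma) higher at 1 h and 173 lower with IFN-gamma. At 3 h it called 532 and 746 higher. Socs3, which blocks gp130 signalling, rose 4.33-fold with IFN-alpha and 16.96-fold with IFN-gamma at 1 h. At 3 h it rose 8.79-fold with IFN-gamma (limma adjusted p 6.73e-11) and differed by 0.10 ± 0.18 with IFN-alpha (limma adjusted p 1.0). Among 16 measured negative regulators of JAK-STAT signalling, 2 were called with each interferon at 1 h, 2 with IFN-alpha at 3 h and 4 with IFN-gamma at 3 h. Besides Socs3 and Usp18 these were Cish, called with IFN-gamma at both times, Socs2, called with IFN-alpha at 3 h (at least 1.45-fold), and Socs1, called with IFN-gamma at 3 h (at least 3.15-fold).

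Of the 9 measured gp130 cytokines and receptors, 1 was called higher in each comparison with mock other than IFN-gamma at 3 h, where 2 were, and 1 was called lower with IFN-gamma at each time. Of the 9418 genes, 28 and 167 were called higher with IFN-alpha at 1 h and 3 h. With IFN-gamma 36 and 205 were called higher, and 6 and 13 lower. Il6, the founding cytokine of the family, rose 3.98-fold with IFN-alpha and 3.24-fold with IFN-gamma at 1 h, and 2.94-fold with IFN-alpha at 3 h. Lif fell by 1.51 on the log2 scale with IFN-gamma at 1 h and by 0.71 at 3 h. The receptor chains Lifr and Osmr rose 2.08-fold and 1.72-fold with IFN-gamma at 3 h. Il6st, which encodes gp130 itself, differed by between 0.01 and 0.40 over the 4 comparisons, and none of these was called by limma without the block. With the block, Il6st and Il6 were called higher with IFN-gamma at 3 h (adjusted p 0.0217 and 0.018), and Osmr with IFN-gamma at 1 h (0.00387) and with IFN-alpha at 3 h (0.00208).

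**Figure D5:**
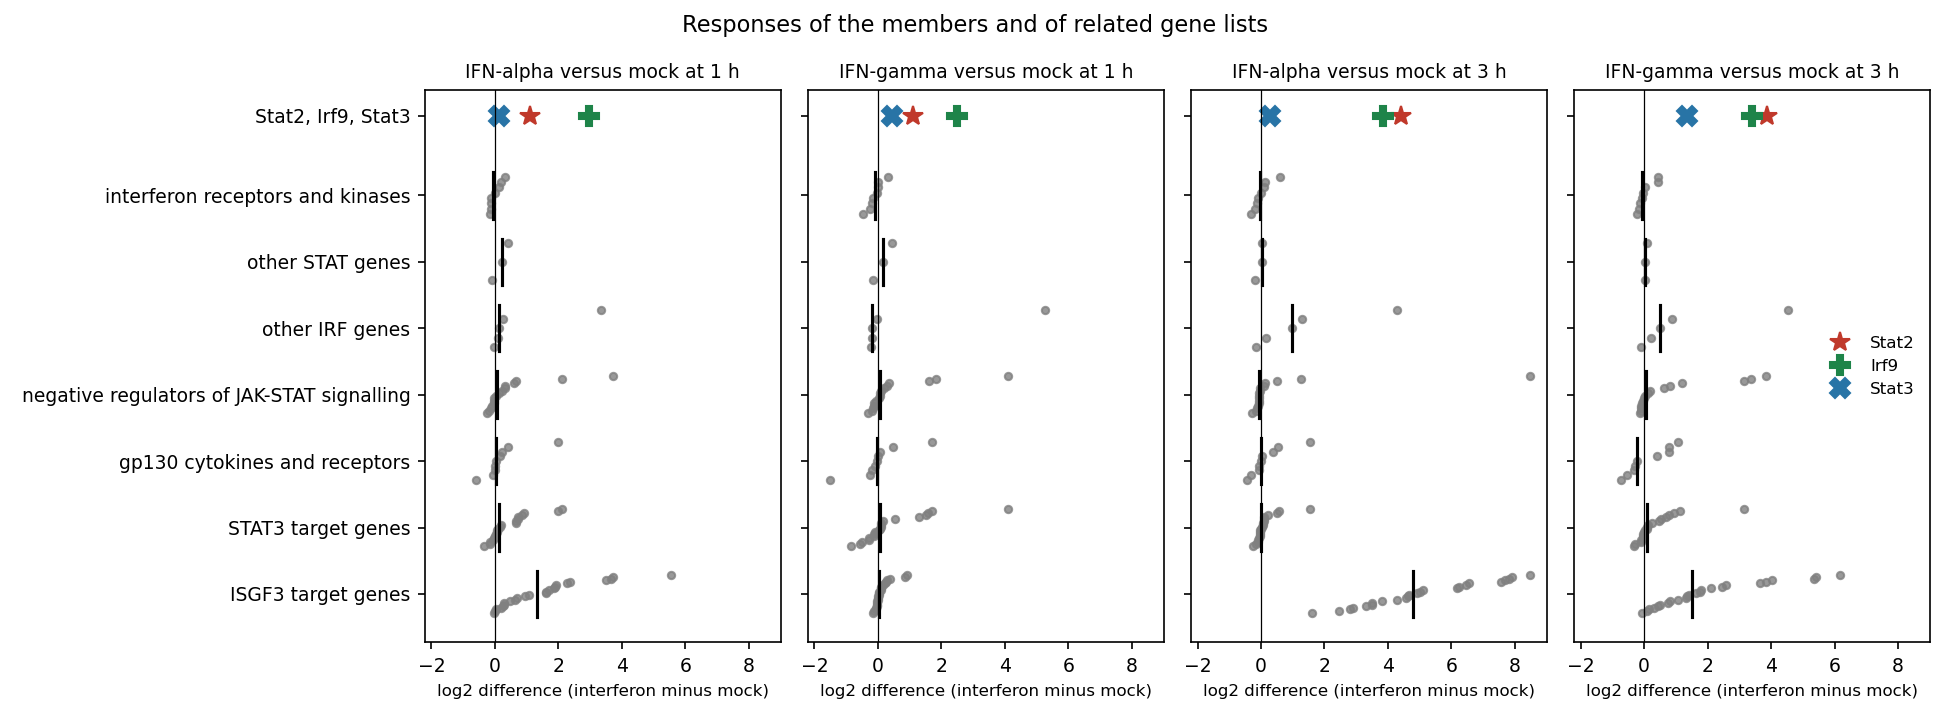
Log2 difference of each interferon from mock at 1 h and 3 h for the members (Stat2, Irf9 and Stat3 by the probe set with the highest mean) and for each measured gene of 7 lists around them (grey points, with the list median as a black bar). ISGF3 target genes have a median of 0.04 with IFN-gamma at 1 h, where Irf9 stands at 2.49, and of 4.78 with IFN-alpha at 3 h.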

How the data were processed

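Total RNA of NIH-3T3 cells in 7 groups was hybridised to 24 Affymetrix arrays, 1 colour each. The authors deposited log2 values made with GCRMA (a method that corrects each probe for background from its sequence, normalizes across arrays and summarises each probe set), per the submitters' processing notes. Its version, and whether all arrays were processed in 1 run, are not given in the sources used here. No further normalization was applied.

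Of 45101 probe sets, 64 controls were left out, and 19305 of the other 45037 were kept (above log2 4 on at least 3 arrays). The platform annotation gave 34945 a single symbol, 932 several and 9160 none, and genes were named only from single symbols. Genes with several probe sets are represented by the brightest one on average over the 24 arrays. Folds against a group whose mean is below log2 4 are lower bounds, with its arrays below 4 raised to 4, and no fold is given where both groups are below it.

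A single limma 3.58.1 model in R 4.3.3 (lmFit, then eBayes) held a mean for each group, with 17 residual degrees of freedom, two-sided tests and Benjamini-Hochberg adjustment over the 19305 in each of 9 comparisons. The fit was tested on simulated data. Alternatives were the replicate block, subsets of arrays, other filters, floors, weights, quantile normalization and leaving out each array. Same-numbered arrays were taken as pairs within each interferon comparison, which the labels do not state. This rests on correlations of their deviations from the group means (0.128 to 0.914), which were weak for some pairs. Pairs of replicate arrays correlated at 0.958 to 0.999, and in none were more than 50% of the values identical.

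Members, gene lists, motifs and tests were chosen with earlier results of these data known, and the lists share some genes. Named genes are the members, the 5 genes most correlated with each over the arrays, and for each list all called genes where there were 6 or fewer, otherwise the 4 with the largest change, together with a fixed set of pathway genes. Promoter windows were matched by symbol to RefSeq.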

Additional observations from a re-analysis of the deposited data

Results flagged for a closer look

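On Stat3 probe set 1460700_at, the IFN-alpha array of replicate 4 at 1 h stood far from the other 3 of its group, at 9.24. On the background-level Stat3 probe set 1424272_at, replicate 3 of IFN-alpha at 1 h (2.54) and replicate 2 of mock at 1 h (2.67, an array of low 5′ actin signal) did the same. Such gaps were looked for in 21 groups of 4 arrays, of which chance alone marks about 1 in 20.

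The Stat2 response differed between the times under the same contrast. For IFN-alpha the 3 h response exceeded that at 1 h by 3.30 on 1450403_at and by 3.66 on 1421911_at, and for IFN-gamma by 2.78 and 3.67, by limma with the adjusted p values given with the Stat2 results. Dose and window of 4sU differed between the times too and cannot be told apart from time, although mock cells carried the same 4sU as treated cells at each time.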

How the results depend on the processing

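The calls for Irf9 against mock, for Stat2 against mock at 3 h, for Stat3 probe sets 1460700_at and 1459961_a_at with IFN-gamma against mock at 3 h and for 1459961_a_at with IFN-gamma against mock at 1 h were kept under all alternatives run on those probe sets. With the replicate block, which pairs same-numbered arrays, further calls were Stat3 (1460700_at) with IFN-gamma at 1 h (0.45), its IFN-gamma change between times (0.91) and that of Irf9 (0.91), besides those given above for Stat2 1421911_at and Stat3 1459961_a_at and 1426587_a_at. Counts of called probe sets with the block were 135 and 428 at 1 h for IFN-alpha and IFN-gamma against mock, 591 and 1029 at 3 h, 401 and 906 for IFN-alpha against IFN-gamma at 1 h and 3 h, 389 and 527 for the changes of the IFN-alpha and IFN-gamma responses, and 111 for 4sU, against 50, 95, 300, 385, 70, 325, 184, 160 and 6 without it. In the order of those 6 interferon comparisons, counts from only the groups compared were 14, 28, 506, 952, 10 and 869, and from only arrays of the same time 22, 51, 609, 1127, 32 and 993. Array weights gave 1615, 2032 and 1977 at 3 h (each interferon against mock, then against each other), and 281 and 317 for the changes between times. For 4sU the counts were 0 from only the groups compared, 0 from the same time, 28 with values floored at log2 4, 18 with no filter, 0 with the filter at log2 6, 3888 with array weights, 2 without the arrays of low 5′ actin signal, and 1 to 13 with single arrays left out.

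Substituting probe sets changed Stat3 most. By 1459961_a_at, IFN-gamma at 1 h gave 2.18 and IFN-alpha minus IFN-gamma -1.53, both called (the second not in the fit of its own arrays), while the changes between times turned to -0.61 (IFN-alpha) and -1.10 (IFN-gamma) and the 4sU difference to -0.17. By 1426587_a_at the 3 h differences lost their calls (1.34 for IFN-gamma, -1.06 between interferons) and the IFN-alpha change turned to -0.13. The cause was not tested. The IFN-alpha minus IFN-gamma difference of Irf9 at 3 h (0.43) was called in the fit of its own arrays, and the IFN-gamma change of Stat2 (2.78) lost its call with no filter. Its values with single arrays left out were 2.40 to 3.07. The Stat3 change for IFN-gamma was also called with array weights (0.94).

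Differences near 0 that were not called changed sign. Between interferons at 1 h, Stat2 turned to -0.0034 with quantile normalization, to -0.21 with array weights, and ran from -0.43 to 0.43 with single arrays left out. Stat3 with IFN-alpha at 1 h ran from -0.0053 to 0.26. For 4sU, the block also paired unlabelled with labelled mock arrays of the same number, which the labels do not state. The deviations of these pairs correlated at 0.802, 0.367 and 0.081. With this block the 4sU difference turned to -0.027 (1450403_at) and -0.15 (1421911_at) for Stat2 and to -0.029 for Stat3. Without the arrays of low 5′ actin signal Irf9 was 0.16 and Stat3 -0.015 (0.043 on 1459961_a_at). With single arrays left out Irf9 ran from -0.40 to 0.026 and Stat3 from -0.024 to 0.21 (-0.32 to 0.014 on 1459961_a_at). On 1459961_a_at IFN-alpha at 3 h was -0.026 with array weights and ran from -0.00033 to 0.083. On 1426587_a_at the IFN-alpha change was 0.27 with array weights and 0.17 without the arrays of low 5′ actin signal. With single arrays left out, 1426587_a_at ran from -0.68 to 1.21 (IFN-alpha at 1 h), -0.61 to 1.52 (IFN-gamma at 1 h), -1.11 to 0.72 (between interferons at 1 h), -0.93 to 0.96 (IFN-alpha change) and -0.18 to 1.95 (IFN-gamma change). Stat2 minus Stat3 for IFN-gamma at 1 h turned to -0.088 with values floored at log2 4. Signals below log2 4 limit Stat2 at 1 h.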
